A study of Homo sapiens with 6 samples.

Results

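The integrated stress response and the unfolded protein response were examined through 34 genes in SK-BR-3, an established HER2-overexpressing breast cancer cell line, after knockdown of GRB2. The 34 genes were chosen by symbol, with earlier results of these data known. All 34 were found among the 30327 genes of the count table and had enough reads to be tested with 15801 genes in all. Of them, 20 are factors, targets and sensors of the stress responses (the ISR and UPR genes) and 14 are cytosolic aminoacyl-tRNA synthetases. Poly(A) RNA was sequenced from 3 libraries with a nontargeting control siRNA (si_NC) and 3 in which GRB2 was targeted (si_GRB2). The cells were cultured in DMEM with serum, the labels give the groups no other difference in treatment, and nothing says whether the 3 libraries of a group came from separate cultures, so p-values measure the spread between these libraries. The labels of the treated libraries disagree, since the titles and characteristics speak of overexpression of GRB2 and the descriptions of si_GRB2. The study's methods also name a GRB2 overexpression group for RNA-seq, while its results describe a knockdown. In CPM, the counts normalised to a library of 1000000 reads, GRB2 itself had 124, 129.5 and 126 CPM in si_NC and 27.8, 28.1 and 29.6 CPM in si_GRB2, so the treated libraries are called by their siRNA label here. The study's methods print a single siRNA against GRB2, its list of RNA samples names several by number, and the labels do not say which made the si_GRB2 libraries. Effects of losing GRB2 and effects of the siRNA on other transcripts cannot be told apart in this design. The libraries held from 24810378 to 28532480 reads counted on genes. The epithelial markers ERBB2, EPCAM, KRT8, KRT18 and KRT19 were high in every library, with group means from 137 CPM for EPCAM to 5969 CPM for KRT8. Between si_NC and si_GRB2, mean ERBB2 went from 3499 to 4139.6 CPM, KRT8 from 5969 to 4492 CPM and EPCAM from 201 to 137 CPM, and the part of these shifts in the results was not tested. The leukocyte gene PTPRC and the fibroblast gene DCN were at or near 0, with group means of at most 0.0262 CPM. Of the other fibroblast genes, COL1A1 had 4.498 and 4.57 CPM in si_NC and si_GRB2, and COL1A2 0.119 and 0.0385 CPM. Of the other leukocyte genes, CD14 had 0.604 and 0.488 CPM and CD3E 0.137 and 0.0386 CPM.

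In the integrated stress response, kinases that sense a lack of amino acids, misfolded protein or other stress phosphorylate the initiation factor eIF2. General translation then slows while translation of ATF4, a transcription factor, rises. ATF4 works with C/EBP partners and switches on genes for amino acid synthesis, amino acid transport and tRNA charging. The unfolded protein response has 3 sensors in the membrane of the endoplasmic reticulum (ER), which are PERK (gene EIF2AK3, one of the eIF2 kinases), IRE1 (gene ERN1, which splices XBP1 mRNA) and ATF6. Gene counts record neither eIF2 phosphorylation, nor ATF4 protein, nor the spliced form of XBP1, so only transcript levels are described. A gene is said to have risen or fallen where edgeR's quasi-likelihood test gave an adjusted p under 0.05 (Benjamini-Hochberg over the 15801 genes).

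The binding sequences of these responses can be read in the promoters of the members. The set of RefSeq promoters used here (GRCh38.p14) held 300 bases per promoter, from 250 before to 50 after the start site. It covered 27 of the 34 members. NUPR1, PSPH, SHMT2, ALDH1L2, LARS1, VARS1 and YARS1 had no entry in this set. The core of the composite C/EBP-ATF element, TGATGNAA, was searched on both strands. It was in 8 of the 27 members and in 3.67% of all 27305 promoters. The 8 are ASNS, CHAC1 and 6 synthetases (AARS1, CARS1, IARS1, MARS1, NARS1 and TARS1), and the 6 synthetases were 6 of 11 with an entry. Among related genes with an entry, the core was in 0 of 8 other cytosolic synthetases and their scaffold proteins. It was in 1 of 14 mitochondrial synthetases and 5 of 23 other ATF4-responsive genes. Windows of 30 bases from the 8 members are shown because they let the members with one shared element be compared in their response. The capitals mark the core, all sequences are written 5′ to 3′ along the gene, and the core appears as its reverse complement where it lies on the opposite strand.
ASNS (minus strand, chr7:97872458-97872487): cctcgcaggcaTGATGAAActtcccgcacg
CHAC1 (plus strand, chr15:40953251-40953280): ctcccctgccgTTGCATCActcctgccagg
AARS1 (minus strand, chr16:70289675-70289704): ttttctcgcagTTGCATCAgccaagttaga
CARS1 (minus strand, chr11:3057407-3057436): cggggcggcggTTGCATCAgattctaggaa
IARS1 (minus strand, chr9:92293692-92293721): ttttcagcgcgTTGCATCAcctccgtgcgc
MARS1 (plus strand, chr12:57488053-57488082): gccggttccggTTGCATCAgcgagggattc
NARS1 (minus strand, chr18:57621804-57621833): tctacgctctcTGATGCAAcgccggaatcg
TARS1 (plus strand, chr5:33440956-33440985): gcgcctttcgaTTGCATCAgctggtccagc
In CARS1, IARS1, MARS1, NARS1 and TARS1, the first base of the core lay at −2, −13, −4, 15 and 3 from the start site. In ASNS, AARS1 and CHAC1 it lay farther upstream, at −68, −187 and −209. A single promoter was read per gene, so other start sites were not searched and these positions depend on the start site taken.

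The ER stress element, CCAAT and CCACG with 9 bases between them, is bound by ATF6 and XBP1 together with NF-Y. It was in 0.0806% of all promoters (22 of 27305) and in 1 of the 27 members, XBP1 itself. Among 19 genes listed for the XBP1 and ATF6 branches, most of them ER genes that respond to these factors, 5 held it. HSP90B1, which rose, and CANX, which was not called, held it and are not shown. XBP1 is shown with HSPA5, CALR and CRELD2, which are ER genes that also rose, and the capitals mark the element.
XBP1 (minus strand, chr22:28800597-28800626): gctggCCAATCGCGGAGGGCCACGaccgta
HSPA5 (minus strand, chr9:125241385-125241414): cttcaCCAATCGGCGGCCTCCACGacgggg
CALR (plus strand, chr19:12938379-12938408): ccacgCGTGGTCGACCATCATTGGtcggtg
CRELD2 (plus strand, chr22:49918549-49918578): cctctCGTGGCGAACTCGGATTGGgccata
In CALR and CRELD2 the element lies on the opposite strand. A match of letters is a description of the promoter and no measure of binding.

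The 7 enzymes of serine synthesis, asparagine synthesis and mitochondrial folate metabolism all fell in si_GRB2, with changes from −7.88% for MTHFD2 to −27.7% for PHGDH. Over all tested genes, 15.5% fell and 15.2% rose, and of the genes called 49.5% were higher (61.7% with limma on log2(FPKM + 1)). The summed level of these enzymes was 762 ± 9.51 CPM in si_NC and 647 ± 17.1 CPM in si_GRB2 (SD, n = 3 each). In bulk RNA, fewer cells with a transcript and less of it per cell cannot be told apart. PHGDH, which opens the serine pathway, had 64.2, 67.0 and 66.1 CPM in si_NC and 47.3, 49.7 and 45.5 CPM in si_GRB2. Its groups were well apart, with a log2 fold change of −0.47 (standard error, SE, 0.04, edgeR adjusted p = 4.16e-07). PSAT1, the aminotransferase of the next step, had 109, 116 and 113 CPM in si_NC and 84.1, 86.7 and 94.7 CPM in si_GRB2. Replicate 3 of si_GRB2 was the highest of its group and still below every si_NC library, and the log2 fold change was −0.35 (SE 0.04, edgeR adjusted p = 1.3e-05). PSPH, the phosphatase that releases serine, had 19.6, 18.8 and 19.6 CPM against 14.9, 15.7 and 16.5 CPM. Its log2 fold change was −0.30 (SE 0.06, edgeR adjusted p = 0.0013), so the genes of all steps from 3-phosphoglycerate to serine were lower.

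SHMT2 and MTHFD2 are mitochondrial enzymes of folate metabolism, the former moving a carbon of serine onto folate and the latter oxidising it there. SHMT2 had 207, 205 and 209 CPM in si_NC and 178, 175 and 180.1 CPM in si_GRB2, a log2 fold change of −0.22 (SE 0.03, edgeR adjusted p = 1.44e-05). MTHFD2 had 203, 208 and 201 CPM against 183, 186 and 194 CPM. This was the smallest fall of the 7 enzymes, −0.12 on the log2 scale (SE 0.03, edgeR adjusted p = 0.00714), with no overlap between groups. ALDH1L2, a mitochondrial dehydrogenase that releases the folate-bound carbon as CO2, had 9.98, 9.65 and 11.0 CPM against 7.27, 8.70 and 8.81 CPM. Its log2 fold change of −0.31 (SE 0.10, edgeR adjusted p = 0.025) rested on 1480 reads and lost its call without si_NC replicate 3 (adjusted p = 0.0827) and without si_GRB2 replicate 1 (adjusted p = 0.114). NOPCHAP1 and WASHC4 overlap ALDH1L2 on the opposite strand by 54414 and 320 bases, and their total reads were 316% and 450% of its reads. An unnamed coding gene overlaps MTHFD2 by 5962 bases, with total reads at 21.4% of those of MTHFD2. The bases are of whole gene spans with introns, and reads within the shared stretch were not counted. The libraries were made strand-specific by dUTP marking of the second cDNA strand. Whether the authors' counting used strand is not given in the sources used here, so reads of overlapping partners may not be told apart. ASNS, the asparagine synthetase, had 138, 144 and 148 CPM in si_NC and 118, 119 and 126 CPM in si_GRB2. The log2 fold change was −0.24 (SE 0.04, edgeR adjusted p = 6.83e-05), and a long noncoding gene on the same strand had reads equal to 4.74% of those of ASNS. With limma on log2(FPKM + 1) in place of edgeR on counts, ASNS (adjusted p = 0.0576), MTHFD2 (adjusted p = 0.367) and ALDH1L2 (adjusted p = 0.215) were not called.

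**Figure D1:**
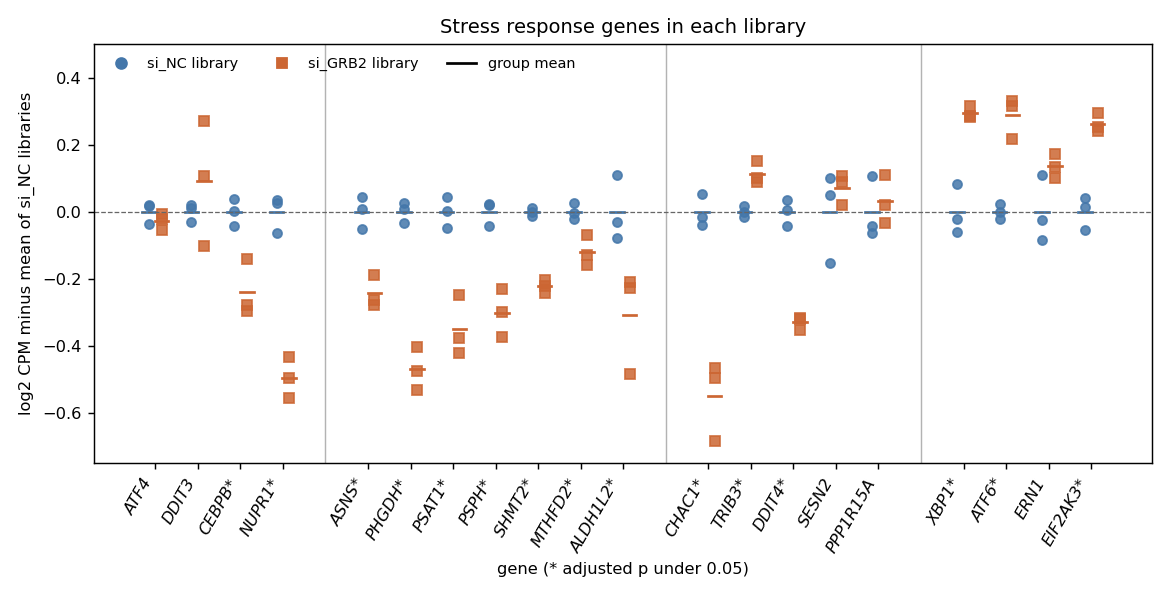
Each of the 20 ISR and UPR genes is plotted on the horizontal axis, parted by role, with log2 CPM minus the mean of the si_NC libraries on the vertical axis. Points are libraries (3 per group), short lines are group means and asterisks mark an adjusted p under 0.05; the 7 enzymes in the second block all lie below 0 in si_GRB2, while XBP1, ATF6 and EIF2AK3 in the last block lie above.

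Of the 4 transcription factors, 2 fell and 2 were not called, where 15.5% of all tested genes fell. ATF4 had 339, 351 and 352 CPM in si_NC and 335, 342 and 345 CPM in si_GRB2. The groups overlapped, and the log2 fold change was −0.03 (SE 0.03, edgeR adjusted p = 0.494). With limma on log2(FPKM + 1) the value for ATF4 was 0.0158, while it stayed negative in edgeR and DESeq2 on counts under every scaling and filter tried. DDIT3, which encodes CHOP, a factor of prolonged stress, had 15.2, 14.7 and 15.3 CPM in si_NC and 18.2, 14.02 and 16.2 CPM in si_GRB2. Its si_GRB2 libraries lay on both sides of the control values (coefficient of variation 12.8%), and the log2 fold change was 0.10 (SE 0.08, edgeR adjusted p = 0.423). DDIT3 overlaps its neighbours MARS1 and MBD6, which lie on the opposite strand of chromosome 12, by 982 and 1028 bases, and MARS1 had 31326 reads over the libraries against 2480 for DDIT3. CEBPB, a C/EBP partner of ATF4, fell from 173, 168 and 177 CPM to 156, 142 and 141 CPM, a log2 fold change of −0.24 (SE 0.04, edgeR adjusted p = 0.000194). NUPR1, a small stress-induced chromatin protein, fell from 169, 179.5 and 180.4 CPM to 125, 119.9 and 131 CPM. At −0.49 on the log2 scale (SE 0.04, edgeR adjusted p = 5.18e-08), this was the smallest p-value among the members.

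Of 5 stress-induced regulators, 2 fell, 1 rose and 2 were not called, against 15.5% lower and 15.2% higher over all tested genes. CHAC1, which degrades glutathione, had the largest fold change of the 34 genes and the fewest reads, 870 over the 6 libraries. It had 6.38, 6.28 and 6.70 CPM in si_NC and 4.65, 4.55 and 3.99 CPM in si_GRB2, a log2 fold change of −0.55 (SE 0.12, edgeR adjusted p = 0.0018). DDIT4, an inhibitor of mTORC1 signalling, fell from 193, 187 and 197 CPM to 154, 154 and 151 CPM, with a log2 fold change of −0.33 (SE 0.03, edgeR adjusted p = 4.9e-07). TRIB3, a pseudokinase induced by ATF4 and CHOP, went the other way. It had 203, 201 and 205 CPM in si_NC and 225, 218 and 216 CPM in si_GRB2, a rise of 8.23% (log2 fold change 0.11, SE 0.03, edgeR adjusted p = 0.00586). SESN2, a leucine sensor, had 10.4, 8.75 and 10.1 CPM against 10.5, 9.87 and 10.3 CPM (edgeR adjusted p = 0.643). PPP1R15A (GADD34), the stress-induced subunit of the phosphatase that removes the phosphate from eIF2, had 32.3, 29.1 and 28.7 CPM against 29.3, 30.4 and 32.4 CPM. Its groups covered nearly the same range, with an adjusted p of 0.731 from edgeR.

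The sensors of the unfolded protein response and XBP1 had positive fold changes, opposite in sign to those of the enzymes. Of these 4 genes, 3 rose, against 15.2% of all tested genes. The summed level of the 4 was 590.0 ± 25.8 CPM in si_NC and 719.6 ± 10.3 CPM in si_GRB2 (SD, n = 3 each), most of it from XBP1. XBP1 had 527, 489.8 and 477 CPM in si_NC and 606, 605 and 619.5 CPM in si_GRB2. Its log2 fold change was 0.29 (SE 0.03, edgeR adjusted p = 3.4e-06), an increase of 22.5%. ATF6 had 50.5, 51.4 and 49.8 CPM against 58.7, 63.5 and 62.9 CPM, also a log2 fold change of 0.29 (SE 0.04, edgeR adjusted p = 6.24e-05). EIF2AK3 had 22.2, 22.7 and 21.2 CPM against 26.3, 26.0 and 27.1 CPM, with every si_GRB2 library higher. The log2 fold change was 0.26 (SE 0.05, edgeR adjusted p = 0.000919), from 3858 reads, with an adjusted p of 0.0501 by limma on log2(FPKM + 1). ERN1 had 19.1, 18.3 and 20.9 CPM against 20.8, 21.3 and 21.8 CPM, and replicate 3 of si_NC lay within the range of si_GRB2. The log2 fold change of ERN1 was 0.13 (SE 0.06, edgeR adjusted p = 0.115), and without si_NC replicate 3 the adjusted p was 0.0391.

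Among the 14 cytosolic tRNA synthetases, which load amino acids onto tRNA and many of which are known ATF4 targets, 3 rose, 2 fell and 9 were not called. Over all tested genes, 15.2% rose and 15.5% fell. EPRS1, the bifunctional enzyme for glutamate and proline, rose from 245, 260.1 and 245 CPM to 268, 279.7 and 284 CPM. Its log2 fold change was 0.15 (SE 0.03, edgeR adjusted p = 0.00184). LARS1, for leucine, rose from 189, 191 and 192 CPM to 205, 217 and 219 CPM, a log2 fold change of 0.17 (SE 0.03, edgeR adjusted p = 0.00058). NARS1, for asparagine, rose from 226, 229 and 221 CPM to 241, 249 and 250.1 CPM, a log2 fold change of 0.13 (SE 0.03, edgeR adjusted p = 0.00182). ASNS makes the amino acid that NARS1 loads, and these genes changed in opposite directions. LARS1 was not called by limma on log2(FPKM + 1) (adjusted p = 0.0547).

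WARS1, the tryptophan enzyme, which interferon also induces, had the largest change of the synthetases. It fell from 59.3, 59.5 and 54.1 CPM to 44.9, 46.2 and 44.4 CPM, a log2 fold change of −0.35 (SE 0.05, edgeR adjusted p = 1.95e-05). YARS1, for tyrosine, had 148, 152 and 153 CPM against 135, 143 and 140.2 CPM. YARS1 fell by 7.61% (log2 fold change −0.11, SE 0.03, edgeR adjusted p = 0.011) and was no longer called without si_GRB2 replicate 1 (adjusted p = 0.0535) or by limma on log2(FPKM + 1) (adjusted p = 0.455). S100PBP overlaps YARS1 on the other strand, and its reads came to 9.85% of those of YARS1. Genes on the other strand also overlap WARS1 (WDR25, 7.26% of its reads) and AARS1 (DDX19B, 11.6%). The same holds for MARS1 (DDIT3, 7.92%) and GARS1 (GARS1-DT, 5.53%). The other 9 (AARS1, CARS1, GARS1, IARS1, MARS1, RARS1, SARS1, TARS1 and VARS1) had log2 fold changes from −0.04 for TARS1 to 0.08 for CARS1, with standard errors from 0.03 to 0.04 and groups that overlapped in each. GARS1, for glycine, was the most abundant by reads, with 322 ± 4.77 and 333 ± 9.67 CPM (SD, n = 3 each, edgeR adjusted p = 0.241). Of the 6 synthetases with the C/EBP-ATF core shown above, NARS1 rose and the other 5 were not called, whereas ASNS and CHAC1, with the same core, fell.

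**Figure D2:**
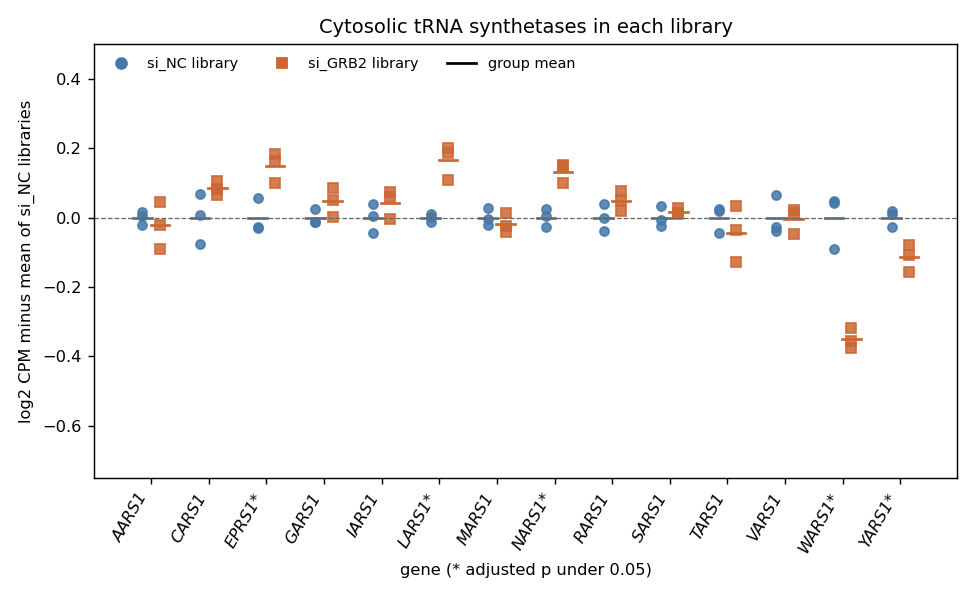
The 14 cytosolic tRNA synthetases are on the horizontal axis, with log2 CPM minus the mean of the si_NC libraries on the vertical axis, at the same scale as for the stress response genes. Points are libraries (3 per group), short lines are group means and asterisks mark an adjusted p under 0.05; most groups overlap around 0, EPRS1, LARS1 and NARS1 lie above and WARS1 and YARS1 below.

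Set side by side, 11 of the 20 ISR and UPR genes fell and 4 rose, while 2 of the 14 synthetases fell and 3 rose, against 15.5% lower and 15.2% higher over all tested genes. The synthetase shares, 14.3% lower and 21.4% higher, lay near that background. The median log2 fold change was −0.17 for the ISR and UPR genes and 0.03 for the synthetases, against 0.00191 for all tested genes. The value of −0.17 joins role groups that went in opposite directions. By role, the medians were −0.30 for the enzymes, −0.13 for the transcription factors, 0.03 for the regulators and 0.28 for the sensors with XBP1. With limma on log2(FPKM + 1) the medians were −0.0929 and 0.0669, and without single libraries by edgeR the synthetase median ran from 0.00869 to 0.0418. The difference between the 2 lists was described by these counts and medians and was not tested. In single libraries, the median of log2 CPM relative to the si_NC mean ran from −0.18 to −0.13 in si_GRB2 for the ISR and UPR genes, outside the range of −0.02 to 0.02 in si_NC. For the synthetases, the same medians ran from 0.01 to 0.05 in si_GRB2 and from −0.02 to 0.02 in si_NC, so their ranges overlapped. The groups did not overlap in 15 of 20 ISR and UPR genes and in 5 of 14 synthetases, compared with 42.3% of all tested genes. Within groups, the coefficient of variation of a member was between 0.702% (SARS1) and 12.8% (DDIT3). The summed CPM of the ISR and UPR genes was 2505 ± 8.14 in si_NC and 2412 ± 26.7 in si_GRB2, and that of the synthetases 2405 ± 32.3 and 2469.8 ± 54.5 (SD, n = 3 each).

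The changes were small. None of the 34 genes passed the limits of the study's methods (fold change above 1.5 or its inverse, taken here with an adjusted p under 0.01 from edgeR), which 2.52% of tested genes passed. The largest absolute log2 fold change of a member was 0.553, below the fold limit of 0.585, so no other p limit in edgeR could change this count. It was also 0 past both limits with DESeq2. CHAC1 lay nearest to the limit and passed it without si_GRB2 replicate 1, where 1 member passed.

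Per length of transcript, the members spanned more than 2 orders of magnitude. XBP1 had the highest level, 278 CPM per kb of its canonical transcript in si_NC and 341 in si_GRB2, ahead of ATF4 with 245 and 240.1. GARS1 followed with 132 and 137 CPM per kb, then DDIT4 with 110.3 and 87.8. The sensors lay far lower, with 6.77 and 8.26 CPM per kb for ATF6, 4.86 and 5.83 for EIF2AK3 and 2.46 and 2.70 for ERN1. ALDH1L2 had the lowest level, 1.38 and 1.11 CPM per kb. The 14 synthetases kept within a narrower band, from 21.8 CPM per kb for WARS1 to 132 for GARS1 in si_NC. These levels depend on the length taken. The deposited FPKM of the members were 0.802 to 0.898 times CPM per kb of merged annotated exons, a length from 1307 to 22418 bases, so genes with long merged exons such as IARS1 and LARS1 appear lower in FPKM.

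**Figure D3:**
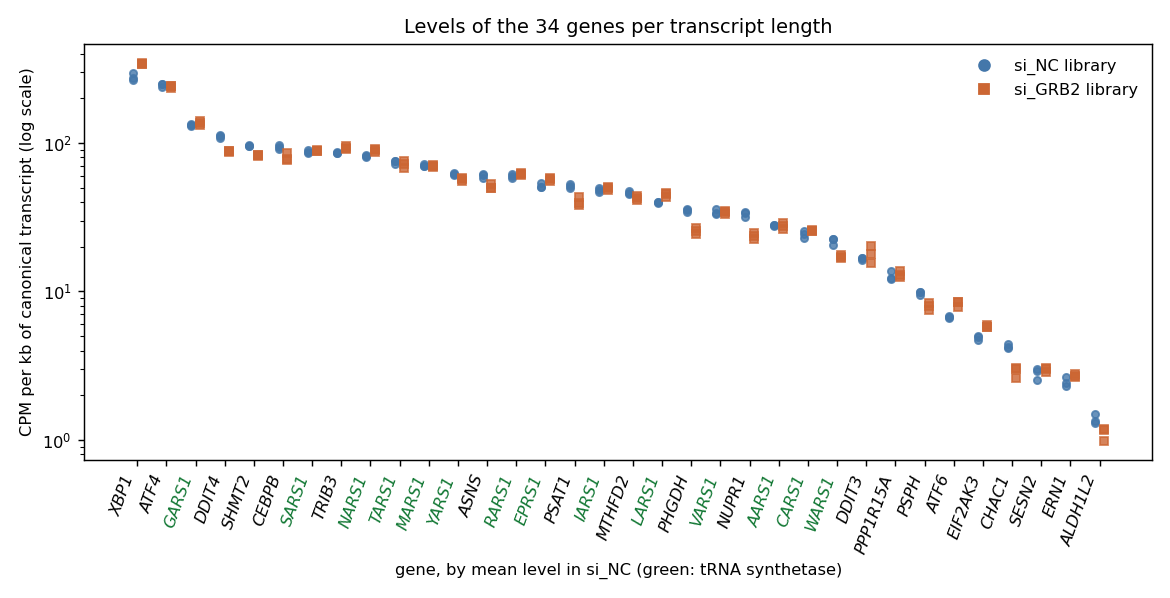
The 34 genes are ordered on the horizontal axis by their mean level in si_NC, with CPM per kb of canonical transcript on a logarithmic vertical axis. Points are libraries (3 per group) and green names are tRNA synthetases; levels run from XBP1 at 278 to ALDH1L2 at 1.38 CPM per kb in si_NC, and differences between groups are small beside those between genes.

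Related genes of the same pathways were read from 5 further lists. These lists, like the members, were chosen with earlier results of these data known, so their shares are no independent test. Of 28 other ATF4-responsive genes, 24 were tested, 7 fell, 1 rose and 16 were not called, with a median log2 fold change of −0.04. The shares lower and higher were 29.2% and 4.17%, against 15.5% and 15.2% over all tested genes. ATF5, a relative of ATF4, fell from 48.0 ± 1.25 to 35.3 ± 1.57 CPM (SD, n = 3 each). EIF4EBP1, a translation repressor, fell by 0.38 on the log2 scale (SE 0.04) and SLC38A2, an amino acid transporter, by 0.18 (SE 0.03). SLC7A5, which carries leucine and other large amino acids into the cell, was the gene that rose. It had 403, 404 and 420.4 CPM in si_NC and 596, 585 and 563 CPM in si_GRB2, a log2 fold change of 0.51 (SE 0.03, edgeR adjusted p = 1.54e-09). The other 4 that fell were PCK2, MTHFD1L, JDP2 and GDF15. MTHFD1L, which follows MTHFD2 in the mitochondrial folate pathway, had a log2 fold change of −0.25 (SE 0.05).

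Of 19 genes listed for the XBP1 and ATF6 branches, 12 rose, 3 fell and 4 were not called, with a median log2 fold change of 0.14. Most are ER genes that respond to these factors, but the list and its counts include MBTPS1 and MBTPS2, proteases that act on ATF6. The shares higher and lower were 63.2% and 15.8%, against 15.2% and 15.5% over all tested genes. The smallest p-values of this list belonged to EDEM1, which clears misfolded glycoproteins, DNAJB9, an ER cochaperone, the chaperone HSPA5 (BiP) and CRELD2. EDEM1 rose from 44.5 ± 1.54 to 58.3 ± 2.11 CPM (SD, n = 3 each) and DNAJB9 from 71.3 ± 3.85 to 91.4 ± 2.89 CPM (SD, n = 3 each). HSPA5 had 623, 627 and 601 CPM in si_NC and 693, 719 and 715 CPM in si_GRB2, a log2 fold change of 0.20 (SE 0.03, edgeR adjusted p = 1.98e-05). Of the 5 ER genes with the ER stress element, HSPA5, HSP90B1, CALR and CRELD2 rose and CANX was not called (log2 fold change −0.06, edgeR adjusted p = 0.126). MBTPS2, a protease that releases ATF6, fell by 0.32 on the log2 scale (SE 0.05), while MBTPS1, which cuts ATF6 first, rose by 0.16 (SE 0.04). The other genes that fell were DNAJC3 and PDIA4.

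In the list of eIF2, eIF2B, the other eIF2 kinases and the eIF2 phosphatase, 5 of 17 fell and 2 rose. The shares lower and higher were 29.4% and 11.8%, against 15.5% and 15.2% over all tested genes. PPP1R15B, the constitutive counterpart of PPP1R15A, had the largest change of this list. It had 98.8, 96.4 and 93.4 CPM in si_NC and 61.4, 60.3 and 63.9 CPM in si_GRB2, a log2 fold change of −0.64 (SE 0.04, edgeR adjusted p = 3.46e-09), which is past the study's limits. EIF2S1, the subunit of eIF2 that the kinases phosphorylate, fell from 207 ± 5.17 to 166 ± 5.44 CPM (SD, n = 3 each). EIF2AK2 (PKR) fell by 0.26 on the log2 scale (SE 0.04), whereas EIF2AK4 (GCN2), the kinase that senses uncharged tRNA, rose by 0.24 (SE 0.05). EIF2AK1 had a log2 fold change of 0.03 (edgeR adjusted p = 0.532).

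Of 10 further cytosolic synthetases and scaffold proteins of the multisynthetase complex, 3 rose and 1 fell. Over all tested genes, 15.2% rose and 15.5% fell. KARS1, for lysine, rose from 127 ± 0.538 to 154 ± 3.74 CPM (SD, n = 3 each), with a higher log2 fold change than any of the 14 members (0.28, SE 0.03, edgeR adjusted p = 3.98e-06). QARS1 rose by 0.16 on the log2 scale (SE 0.03), and FARSA fell by 0.09 (SE 0.03). TARS3 passed the study's limits with a log2 fold change of 0.71 (SE 0.17), from 614 reads. Of 17 mitochondrial synthetases, 3 fell, none rose and 14 were not called. The share that fell, 17.6%, lay near the 15.5% of all tested genes. TARS2 fell by 0.28 on the log2 scale (SE 0.04) and YARS2 by 0.18 (SE 0.05).

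**Figure D4:**
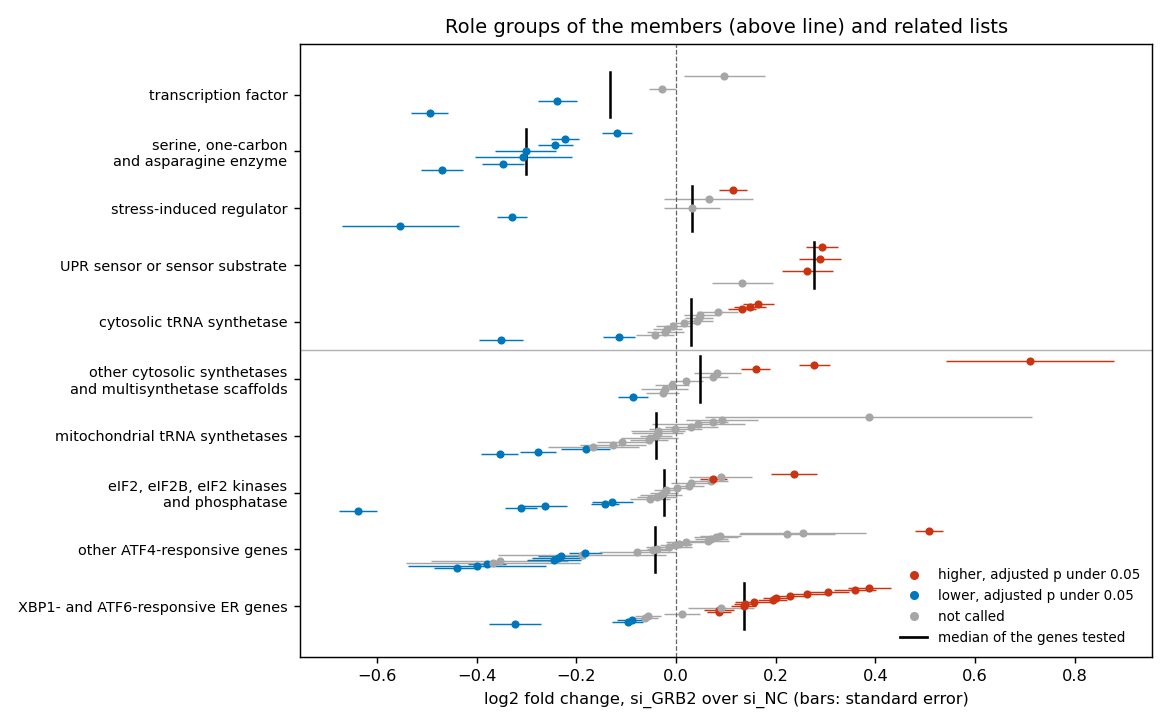
Log2 fold changes of si_GRB2 over si_NC are on the horizontal axis for each tested gene, grouped by role for the 34 members above the grey line and by related list below it. Points are genes with their standard error, coloured by direction where the adjusted p was under 0.05, and black bars are medians; the amino acid enzymes lie left of 0 with a median of −0.30, the sensors and the ER genes mostly right with medians of 0.28 and 0.14, and the cytosolic synthetases around 0.03.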

How the data were processed

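Counts and FPKM were used for 6 libraries, grouped by their descriptions. The authors trimmed reads with FASTX-Toolkit, aligned them to GRCh38 with HISAT2, kept uniquely mapped reads and deposited a count of reads per gene without normalization. The authors deposited FPKM for 29912 genes as well. The counting tool, annotation and strand setting are not given in the sources used here. Counts were normalized by TMM, filtered with filterByExpr and compared by the quasi-likelihood test of edgeR 4.0.16 (R 4.3.3) without a covariate, and checked on simulated data. The simulated folds were 1.5 and 2 in either direction, larger than the change of any member, so recovery of smaller changes was not checked. CPM are TMM-normalized, and standard errors are the log2 fold change over the square root of F. Every member was to be named or counted, with values in every library for ATF4, DDIT3, XBP1, ATF6, ERN1, EIF2AK3 and each member with an adjusted p under 0.05, and up to 4 genes of each related list by smallest adjusted p were to be named. Genes named beyond these were chosen after their values were seen. The values of 1 gene of the related lists are not reported here. The members and lists were chosen with earlier results of these data known. Canonical transcripts, exons and overlaps came from GENCODE 44 on GRCh38, which held 99.7% of the gene identifiers. DESeq2 1.42.0, limma 3.58.1 on log2 FPKM, other scalings and filters, a replicate block and leaving out each library were the alternatives. Counts between 870 and 88189 reads per member limit the precision, as the standard errors show. Python 3.11.15 made the remaining tables and the figures.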

Additional observations from a re-analysis of the deposited data

How the results depend on the processing

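With limma on log2(FPKM + 1), 8 ISR and UPR genes fell and 3 rose, 1 synthetase fell and 2 rose, and the medians were −0.0929 for the ISR and UPR genes and 0.0669 for the synthetases. With log2(FPKM + 0.1) they were −0.126 and 0.0718, again with 1 synthetase lower, and with a mean FPKM of at least 1 the synthetases gave 1 and 0.0669. FPKM were not TMM-scaled, and limma on log2(FPKM + 1) called 2633 genes over the whole table, 61.7% of them higher, against 4838 and 49.5% by edgeR on counts. Without si_GRB2 replicate 1, 1 synthetase fell and 1 member passed the study's limits. Without each library in turn, 10 to 11 ISR and UPR genes fell and 4 to 5 rose, 1 to 2 synthetases fell and 3 rose, 0 to 1 members passed those limits, and the medians ran from −0.18 to −0.16 and from 0.00869 to 0.0418. Directions that reversed belonged to genes that were not called. With limma on log2(FPKM + 1), with or without the filter, the log2 fold changes were 0.0185 for AARS1, 0.0158 for ATF4, 0.0248 for MARS1, 0.000135 for TARS1 and 0.0371 for VARS1. With log2(FPKM + 0.1) they were 0.0205, 0.0160, 0.0257, 6.63e-05 and 0.0389 in the same order. Without single libraries, AARS1 ran from −0.0549 to 0.0114, PPP1R15A from −0.00800 to 0.0802, SARS1 from −0.00293 to 0.0258, SESN2 from −0.0116 to 0.109 and VARS1 from −0.0322 to 0.0214. Over 507 refits of single members, 466 kept direction and call, 18 lost the call, 1 gained it and 22 reversed. The calls lost were of ALDH1L2, ASNS, EIF2AK3, LARS1, MTHFD2 and YARS1, mostly with FPKM, and ALDH1L2 was also not called by DESeq2 (adjusted p = 0.0567). Same-numbered libraries did not all deviate together (correlations 0.23, −0.09 and 0.08), and with the replicate block 11 ISR and UPR genes fell and 4 rose, as did 2 and 3 synthetases, so the block changed no member's call. The causes of these differences were not tested. Depth limits CHAC1, ALDH1L2 and SESN2 most.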
